A study of Ovis aries with 40 samples.

Results

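The COP9 signalosome, a protein complex that removes the ubiquitin-like protein NEDD8 from cullins, was followed gene by gene in sheep skeletal muscle. The complex acts on the cullin-RING ligases, a large family of ubiquitin ligases that need NEDD8 on their cullin to be fully active. COPS5 is the subunit with the isopeptidase activity and works as a pair with COPS6, a related subunit with no activity of its own. The other subunits, among them GPS1, COPS2, COPS3, COPS4, COPS7A, COPS7B and COPS8, form the scaffold that holds this pair.

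Of 9 listed subunits, 7 were measured, each by a single probe set that carried only that gene symbol, out of 9155 genes represented on the array. These were COPS5 (gene ID 507179), COPS6 (512756), GPS1 (525572), COPS3 (507932), COPS4 (540223), COPS7B (617995) and COPS8 (540493). COPS2 and COPS7A were not analysed here, since no probe set was matched to their symbols. All 7 measured subunits were among the 6360 detected genes, a gene counting as detected where its mean signal reached 61.8, the middle value of the probe sets.

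The muscle was longissimus dorsi of 40 progeny of 6 Poll Dorset industry sires at 78 weeks of age, with 1 array per animal. The high muscling group held 19 progeny of 3 sires whose estimated breeding value (EBV) for the depth of the eye muscle was high, namely 8 from sire 11, 7 from sire 2 and 4 from sire 7. The low muscling group held 21 progeny of 3 sires with a low EBV, namely 8 from sire 16, 5 from sire 17 and 8 from sire 5. The EBV belongs to the sire, so a group is a sample of 3 families. All animals were raised to the same industry standards. Values are MAS5 signals, a linear intensity scaled on each array by the submitters, from probes designed on cattle sequence, so signals are compared between animals for 1 subunit and not between subunits.

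The tissue label was checked with markers. All 9 measured skeletal muscle markers were detected, with a summed signal between 142961 and 203250 in high muscling animals and between 146221 and 203692 in low muscling animals. The 6 fibroblast markers summed to between 4745 and 11650 in high muscling animals and to between 7376 and 21951 in low muscling animals, and 4 of them were lower in high muscling (among them COL3A1, COL1A2 and COL1A1). Leukocyte markers summed to between 654.5 and 1330 in high muscling animals and to between 739.8 and 2171 in low muscling animals, and 1 of 5 detected was lower in high muscling (AIF1). Smooth muscle markers summed to between 1085 and 2220 in high muscling animals and to between 1348 and 2515 in low muscling animals, and 1 of 3 was lower in high muscling (TAGLN). No fat cell, endothelium or red blood cell marker passed the test. The marker calls rest on 3 sires per group, and with sire means as samples 0 genes passed. The median signal of an array lay between 56.1 and 67.0, any pair of arrays correlated at between 0.902 and 0.963, and no pair was identical.

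COPS5, the deneddylating subunit, varied little from animal to animal. Its signal was 4871 at the lowest, 5666 at the median and 6566 at the highest in high muscling animals, against 4978, 6457 and 7341 in low muscling animals. The groups overlapped, with the higher values in low muscling. The standard deviation of its log2 signal was 0.15 over the 40 animals, and only 1.46% of detected genes had a lower one. Bright probe sets tend to vary less, but among the 200 detected genes nearest to COPS5 in mean signal, 7.5% had a lower standard deviation. For COPS7B, a scaffold subunit, this share was 6% of its own 200 neighbours, and for GPS1, the largest scaffold subunit, it was 17%. COPS3, COPS4, COPS6 and COPS8 lay between 43.5% and 66.5%, near the middle of genes of like signal.

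**Figure D1:**
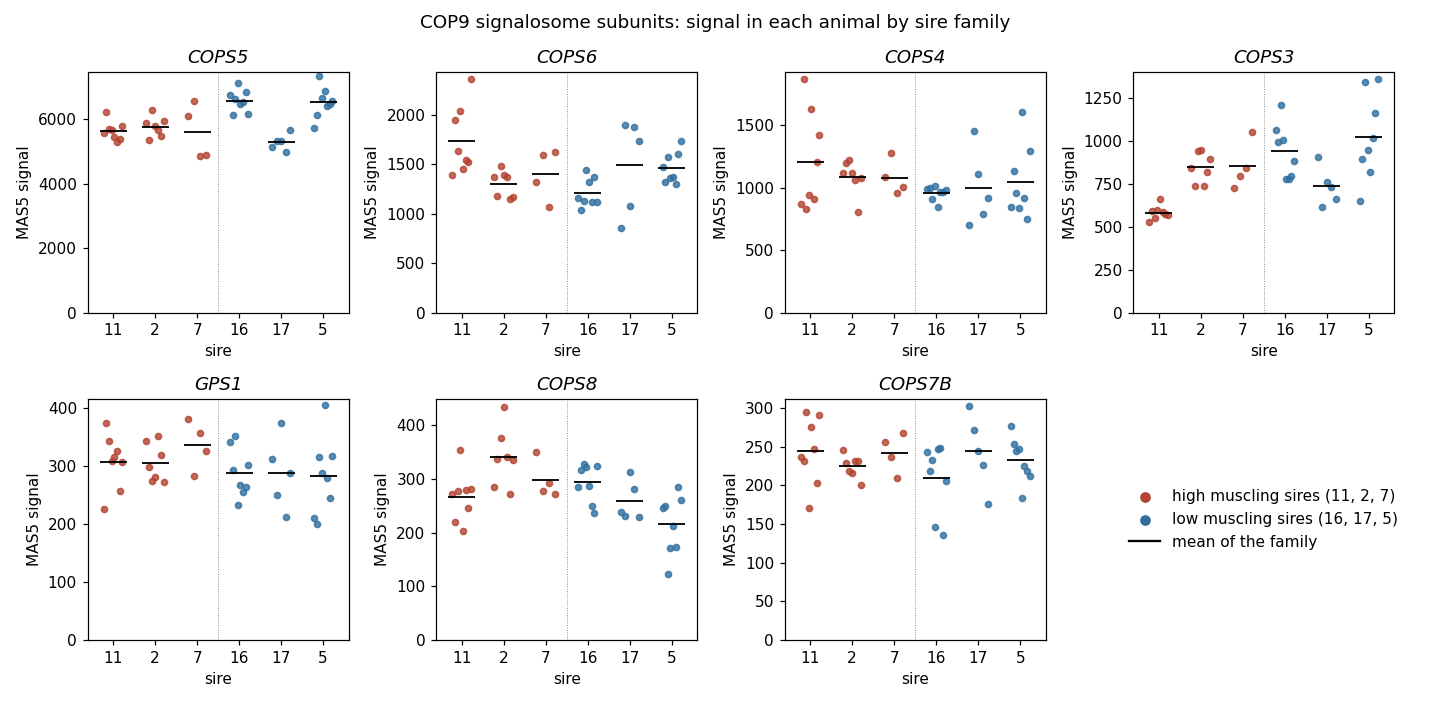
MAS5 signal (linear scale, y axis from 0) of the 7 measured subunits in each of 40 animals, by sire, with the high muscling sires 11, 2 and 7 on the left in red, the low muscling sires 16, 17 and 5 on the right in blue and a bar at each family mean. The progeny of sire 11 sit low for COPS3, at 528.1 to 660.0, and those of sire 17 sit low for COPS5, at 4978 to 5654.

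High and low muscling were compared first, to ask whether subunits of the complex differed between the progeny of the selected sires. No subunit passed the test: 0 of 7 had an adjusted p under 0.05 in limma with sire as a random block, while 2.28% of all detected genes were higher and 5.5% were lower in high muscling (145 and 350 genes, against 92 and 556 after each array was centred on its median). At an unadjusted p under 0.05 there were 1386 genes in all, among them 1 subunit, COPS3. COPS3, a scaffold subunit, had signals of 528.1 at the lowest, 736.8 at the median and 1055 at the highest in high muscling animals, against 617.6, 894.4 and 1361 in low muscling animals. The groups overlapped, with the lowest values in high muscling. The log2 difference, high minus low, was −0.28 ± 0.13 (SE, n = 19 and 21 animals from 3 sires per group, limma adjusted p = 0.174). COPS5 had a log2 difference of −0.12 ± 0.07 (limma adjusted p = 0.278), with a mean signal of 5677 ± 437 in high muscling animals and 6244 ± 662 in low muscling animals (SD).

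The other 5 subunits had positive differences, none of which passed. COPS8, the smallest of the scaffold subunits considered here, had signals of 202.9, 281.8 and 433.1 (lowest, median and highest) in high muscling animals, against 123.6, 250.2 and 327.7 in low muscling animals. The groups overlapped, with the lowest animal in low and the highest in high muscling, and the log2 difference was 0.25 ± 0.13 (limma adjusted p = 0.250). The scaffold subunits COPS4 and GPS1 had log2 differences of 0.18 ± 0.14 and 0.15 ± 0.11. COPS6 had 0.12 ± 0.13 and COPS7B 0.07 ± 0.11. Their limma adjusted p lay between 0.472 and 0.787. The median of this difference over all detected genes was −0.04.

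The calls moved with the treatment of the families. With the 40 animals taken as independent, COPS3 (adjusted p = 0.0163) and COPS5 (adjusted p = 0.0496) passed in limma, with 24.9% of all detected genes passing in either direction. Without the 5 progeny of sire 17 the same pair passed, at log2 differences of −0.40 and −0.21, with 19.2% of genes passing. Without the 8 progeny of sire 11, COPS3 differed by only −0.08, and with quantile normalization COPS5 differed by −0.02. Without sire 16 or sire 5, COPS5 differed by −0.07 each time. Without sire 5, COPS3 differed by −0.19. With the sire means as samples, COPS3 differed by −0.24 (limma unadjusted p = 0.255) and COPS5 by −0.11 (unadjusted p = 0.441). Neither passed in that setting, nor did any other detected gene.

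**Figure D2:**
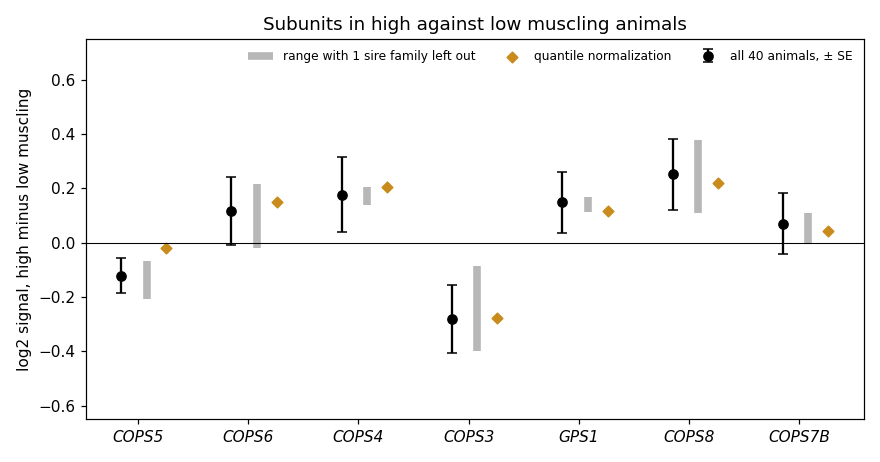
Log2 signal in high minus low muscling animals (y axis) for the 7 measured subunits, with the estimate ± SE over 40 animals (black), the range when 1 sire family was left out (grey) and quantile normalization (yellow). COPS3 and COPS5 lie below 0 and the other 5 above it, and the quantile-normalized COPS5 lies at −0.02.

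The signal of COPS5 relative to each other subunit was compared in the same way. On the log2 scale, the difference of a subunit from COPS5 on the same array was larger in high than in low muscling by 0.37 ± 0.15 for COPS8, 0.30 ± 0.14 for COPS4 and 0.27 ± 0.12 for GPS1. It was 0.24 ± 0.13 for COPS6, 0.19 ± 0.14 for COPS7B and −0.16 ± 0.13 for COPS3. COPS5 itself differed by −0.12, which enters each of these values with its sign reversed. Of the 6 subunits, 0 passed in limma (adjusted p between 0.162 and 0.527), while 3.48% of all detected genes passed. At an unadjusted p under 0.05 in limma there were 3 subunits, and 1239 of all 6359 genes tested. With quantile normalization the difference was 0.14 for GPS1, 0.065 for COPS7B, 0.24 for COPS8 and −0.26 for COPS3, and COPS3 was the only subunit with an unadjusted p under 0.05.

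Sire families within a muscling group differed more clearly. COPS3, COPS5 and COPS8 passed an F test between the sires of each group (3 of 7 subunits, with 22% of detected genes passing), with limma adjusted p of 9.68e-04, 0.0107 and 0.0180. COPS6 had an adjusted p of 0.0678, and COPS4, COPS7B and GPS1 lay between 0.572 and 0.956. COPS3 had its lowest mean in sire 11, COPS5 in sire 17 and COPS8 in sire 5. With quantile normalization COPS5 no longer passed (adjusted p = 0.0830).

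COPS3 had its lowest family mean in the progeny of sire 11. Their 8 signals lay between 528.1 and 660.0, below every value in sire 2 (736.8 to 950.1) and in sire 7 (728.1 to 1055). Against sire 2 the log2 difference was −0.54 ± 0.12 (limma adjusted p = 0.00257, with 15.1% of genes passing), and against sire 7 it was −0.54 ± 0.15 (adjusted p = 0.0135, with 10.6% passing). In the low muscling group, sire 5 was higher in COPS3 than sire 17 by 0.45 ± 0.14 (limma adjusted p = 0.0237, with 12% passing), with signals of 652.3 to 1361 in sire 5 and 617.6 to 905.4 in sire 17. Between sires 2 and 7 no subunit passed in limma, and 0% of genes did (355 at an unadjusted p under 0.05).

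COPS5 had its lowest family mean in the progeny of sire 17. In order of the family mean, sire 16 had a COPS5 signal of 6571 ± 337 (SD, n = 8), sire 5 of 6518 ± 479 (n = 8), sire 2 of 5768 ± 301 (n = 7), sire 11 of 5632 ± 285 (n = 8), sire 7 of 5609 ± 862 (n = 4) and sire 17 of 5281 ± 254 (n = 5). Every value in sire 16 (6114 to 7116) and in sire 5 (5738 to 7341) lay above all 5 values of sire 17 (4978 to 5654). Sire 16 was higher than sire 17 by 0.32 ± 0.07 (limma adjusted p = 0.00466, with 9.76% of genes passing), and sire 5 by 0.30 ± 0.07 (adjusted p = 0.00487). Sires 16 and 5 differed by 0.01 ± 0.06 and no pair of high muscling sires passed, so low muscling held both the highest and the lowest family means of COPS5. The progeny of sire 7 spread most, from 4871 to 6566.

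COPS8 had its lowest family mean in the progeny of sire 5, and its signals were 236.4 to 327.7 in sire 16, against 123.6 to 285.0 in sire 5. Sire 16 was higher than sire 5 by 0.48 ± 0.13 on the log2 scale, with an unadjusted p of 8.50e-04 that became 0.468 after adjustment in limma, in a contrast where 0.0314% of genes passed. COPS6, the partner of COPS5, was high in the progeny of sire 11, at 1396 to 2359, against 1145 to 1479 in sire 2. The log2 difference between them was 0.40 ± 0.14 (limma adjusted p = 0.0445, with 15.1% of genes passing). Against sire 7, at 1068.5 to 1628, sire 11 was higher by 0.31 ± 0.16 and did not pass (limma adjusted p = 0.236, with 10.6% of genes passing).

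Other measures of the samples moved with some of these families. The ratio of 3′ to 5′ signal of the GAPDH control, which reads how intact the RNA was, had a median of 0.37 on the log2 scale in sire 11, against 0.21 to 0.30 in the other families. The same ratio for the actin control had a median between −0.14 and 0.0093 in every family. The fibroblast markers summed to a median of 12653 in sire 16 and 12608 in sire 5, against 9928 in sire 17. Sums of other lists were ordered in the same way, with medians of 2690 and 2524 against 1978 for endothelium, 1615.5 and 1658 against 1211 for leukocytes, 2081 and 1970 against 1606 for smooth muscle and 1271 and 1241 against 816.4 for fat cells, each with sires 16 and 5 before sire 17. The skeletal muscle sums were 164713 in sire 16 and 154524 in sire 5, against 155195 in sire 17. The part of any of these in the differences between families was not tested. In whole muscle, fewer cells of a type and less RNA per cell cannot be told apart.

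The variation of each subunit was then split between groups, sires and animals. For COPS5, 19.7% of the sum of squares lay between muscling groups, 41.2% between sires of a group and 39.2% between progeny of 1 sire. COPS3 had nearly the same split, with 21.1% between groups, 40.9% between sires of a group and the rest between progeny. COPS8 had 32.2% between sires of a group and COPS6 had 27.9%. In COPS4, COPS7B and GPS1 at least 87.3% lay between progeny of 1 sire. The medians over detected genes were 5.44%, 16.1% and 74.1%.

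**Figure D3:**
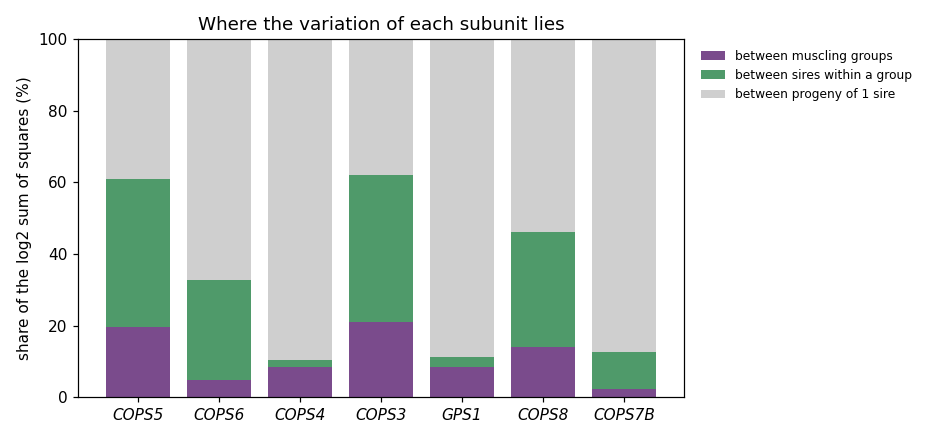
Share of the sum of squares of the log2 signal (y axis, in percent) between muscling groups, between sires of a group and between progeny of 1 sire, as stacked bars for the 7 measured subunits. Only 39.2% of COPS5 lies between progeny of 1 sire, and a like share of COPS3, against 87.3% or more for COPS4, COPS7B and GPS1.

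Whether the other subunits varied with COPS5 was asked over all 40 animals and again within families. Of 6 correlations, 2 had a permutation p under 0.05 over the 40 animals. This test was not run over all genes, so no share of genes can be set beside the count. In limma with no term for sire, 952 genes (15%) passed after adjustment. COPS3 was positively correlated with COPS5 (Pearson r = 0.49, permutation p = 0.00125, Spearman rho = 0.50, permutation p = 0.00125), and r was 0.47 without the 2 animals farthest from the median of COPS5. Its p adjusted over all genes, from limma with no term for sire, was 0.0138, in a fit where 15% of genes passed. With animals permuted within sires, the p of the same r was 0.251. Such permutations leave the part of r between sires unchanged, so this p in effect counts 1 side only. After the mean of each sire was removed, r was 0.13 (permutation p = 0.503 for this r). Single families moved both values. Over the animals r was 0.33 (permutation p = 0.0678) without sire 5. The slope of COPS3 on COPS5 within sires was 0.29 with all families, 1.03 (unadjusted p = 0.0495, limma adjusted p = 0.339) without the 4 progeny of sire 7 and −0.27 (adjusted p = 0.852) without sire 5.

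COPS7B was negatively correlated with COPS5 (r = −0.35, permutation p = 0.0285), and the rank correlation did not pass (rho = −0.26, permutation p = 0.112). With animals permuted within sires, the p of the r over the 40 animals was 0.0495, which again in effect counts 1 side only. Without the 2 animals farthest from the median r was −0.44, and with sire means removed it was −0.24 (permutation p = 0.0964, counting both sides). COPS8 had r = −0.26 (permutation p = 0.109) and rho = −0.11 (permutation p = 0.494), and r was −0.09 without the 2 farthest animals. COPS4 had r = 0.09 (permutation p = 0.562), and its rho of 0.11 had a permutation p of 0.509. COPS6 and GPS1 had r of −0.01 and −0.02 (permutation p = 0.937 and 0.920), with rho of −0.07 for both (permutation p = 0.681 and 0.656).

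Within families another pair of subunits came nearest to COPS5. With sire means removed, COPS4 had r = 0.35 (permutation p = 0.0183 for this r) and COPS6 had r = 0.35 (permutation p = 0.0327 for this r). Permuting animals within sires leaves the part of the r over the 40 animals that lies between sires unchanged. The p of that r (0.587 for COPS4 and 0.990 for COPS6) therefore cannot decide whether they vary with COPS5 within families. Neither passed over all genes: in limma with sire as a fixed effect, the adjusted p was 0.326 for COPS4 and 0.333 for COPS6, and 0 of 6 subunits passed. Across all 21 pairs of the 7 subunits, r within sires ran between −0.26 and 0.35, with 10 pairs above 0. Over the 40 animals it ran between −0.35 and 0.49, with 7 above 0. These pairs share arrays and are given as a description.

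**Figure D4:**
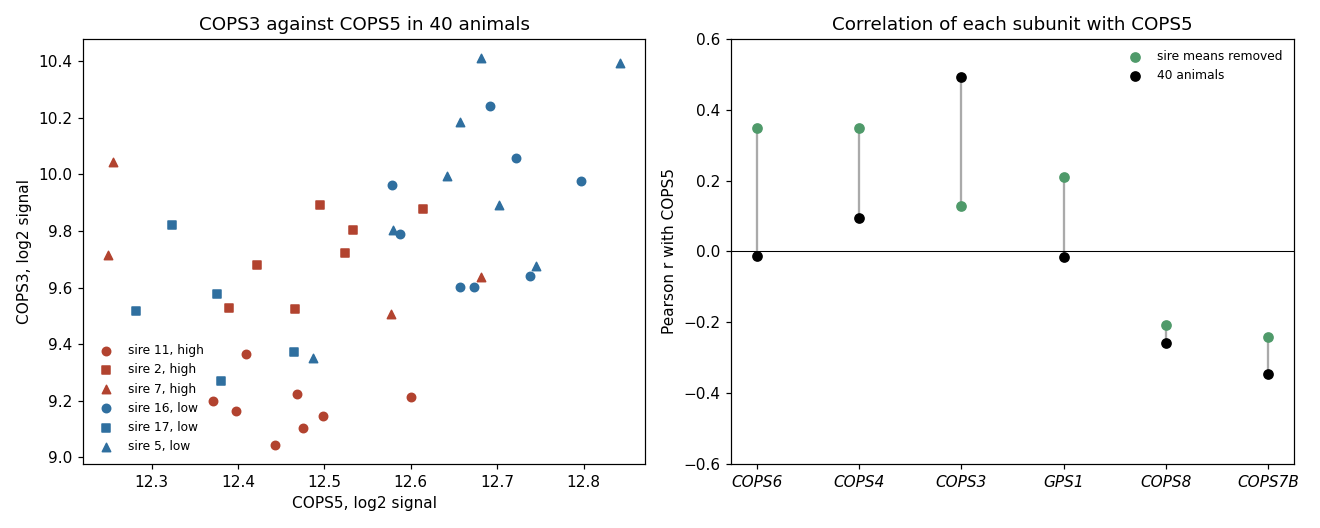
Left, log2 signal of COPS3 (y axis) against COPS5 (x axis) in 40 animals, marked by sire, and right, Pearson r of each subunit with COPS5 over 40 animals (black) and with sire means removed (green). The r of COPS3 is 0.49 over the animals and 0.13 within sires, while those of COPS4 and COPS6 are 0.09 and −0.01 over the animals and 0.35 within sires.

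The relation with COPS5 was compared between the muscling groups. For COPS3, r was −0.04 in high muscling animals (n = 19, permutation p = 0.873) and 0.61 in low muscling animals (n = 21, permutation p = 0.00377). Both p came from permuting animals without regard to sire. In low muscling, sire 17 had the lowest family mean of both genes, at log2 signals of 9.51 for COPS3 and 12.37 for COPS5. The slope of COPS3 on COPS5 within sires was −0.29 in high and 1.22 in low muscling, and the test of the difference did not pass (limma adjusted p = 0.898). COPS8 had slopes of 0.26 in high and −1.81 in low muscling, the subunit with the smallest p for this difference (unadjusted p = 0.0216, limma adjusted p = 0.850). COPS4 and COPS6 had slopes of 1.19 and 0.91 in high muscling and of 0.93 and 0.89 in low muscling. Of all detected genes, 0% passed this test in limma, with 345 at an unadjusted p under 0.05.

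The genes most like COPS5 within families were ordered by r with sire means removed over 40 animals. Those with the highest r were TMOD4 (r = 0.65), which caps actin filaments in skeletal muscle, PDLIM7 (0.64), a scaffold protein bound to actin, AGTPBP1 (0.64), which trims tubulin tails, H3-3A (0.64), a histone with near-identical copies, and RNF187 (0.64), a ubiquitin ligase. At the other end were VCAN (−0.68), a proteoglycan of the extracellular matrix, the imprinted gene MEST (−0.60), ATP1B3 (−0.60), a subunit of the sodium pump, ANXA2 (−0.58), a membrane-binding protein, and CAV2 (−0.58), a protein of caveolae. VCAN alone passed in limma (adjusted p = 0.0224), which is 0.0157% of genes, and 907 genes had an unadjusted p under 0.05. Without sire 11, 2, 7, 17 or 5, in turn, VCAN did not pass (adjusted p between 0.0538 and 0.108).

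Marker lists had medians of r with COPS5 on both sides of that of all genes, 0.01. The 9 skeletal muscle markers had a median r of 0.38 and the 6 fibroblast markers one of −0.38, with COL1A1 at −0.56 (limma adjusted p = 0.0938) and COL3A1 at −0.52 (adjusted p = 0.125). Of both lists, 0 genes passed. The part of the balance of muscle and connective tissue RNA in the COPS5 signal was not tested. The study's mitochondrial module, chosen in part on these samples, had a median r of 0.34 over 44 genes other than COPS5, and its ribosomal module had one of 0.37 over 29 genes, with 0 genes of either passing.

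COPS6 differed from the other subunits in how many genes varied with it. With each subunit in turn as the covariate and sire as a fixed effect, 632 genes (9.94%) passed for COPS6, 314 of them positively and 318 negatively related. For COPS8 1 gene passed (PDE6D, r = −0.73, limma adjusted p = 0.0252), and for COPS3, COPS4, COPS7B and GPS1 0% passed, with 548, 654, 393 and 495 genes at an unadjusted p under 0.05. Of the subunits themselves 0 passed with any other subunit as covariate, COPS6 included. The genes with the highest and lowest r with COPS6 were SYNE2 (0.81), a protein of the nuclear envelope, and NFIC (−0.76), a transcription factor.

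The count for COPS6 fell to 413 without sire 11, 418 without sire 2 and 398 without sire 17, of which 349, 397 and 226 were among the 632. It was 402 without the 2 animals farthest from the median of COPS6, a progeny of sire 11 at 2359 and one of sire 17 at 854.3. It was 390 with the 3′ to 5′ ratio of the GAPDH control as a covariate, an alternative added after seeing the data, as were all others for COPS6. Of fat cell markers, 2 of 4 rose with COPS6 (ADIPOQ, r = 0.69, and FABP4, r = 0.58). Of skeletal muscle markers 1 of 9 fell with it (DES, r = −0.66, limma adjusted p = 0.00184), and of fibroblast markers 1 of 6 (COL1A1, r = −0.50, adjusted p = 0.0268). The median r with COPS6 was 0.49 over the fat cell markers, 0.11 over skeletal muscle and 0.04 over fibroblasts, against −0.01 over all genes. Of the fibroblast markers, DCN (0.24) and PDGFRA (0.21) had a positive r. The part of these markers in the count was not tested.

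Genes of the NEDD8 pathway were among those that passed for COPS6, a set picked out after its values were seen. Of 7 detected, 3 rose with COPS6 and 0 fell, while 4.94% of all genes rose and 5% fell with it. DCUN1D1, which helps NEDD8 onto cullins, had r = 0.69 (limma adjusted p = 9.52e-04). NAE1 and UBA3, which together form the enzyme that activates NEDD8, had r = 0.66 (adjusted p = 0.00458) and r = 0.59 (adjusted p = 0.0293). With COPS5 the same 3 genes had r of 0.21, 0.31 and 0.30, and none passed. NAE1 passed without each sire family in turn, DCUN1D1 did not pass without sire 17 (adjusted p = 0.166), and with families left out in turn UBA3 passed without sire 2 alone (adjusted p = 0.0529 to 0.171 without each of the others). UBA3 also did not pass with the 3′ to 5′ ratio of the GAPDH control as a covariate (adjusted p = 0.0932) or without the 2 animals farthest from the median of COPS6 (adjusted p = 0.0568).

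**Figure D5:**
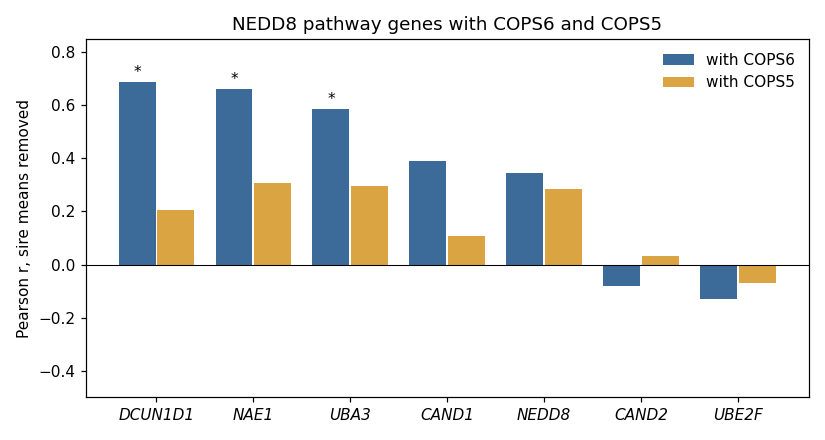
Pearson r with sire means removed (y axis) of the 7 detected NEDD8 pathway genes with COPS6 (blue) and COPS5 (yellow), where an asterisk marks a limma adjusted p under 0.05. DCUN1D1, NAE1 and UBA3 reach 0.59 to 0.69 with COPS6 and 0.21 to 0.31 with COPS5.

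Genes that work with the complex were compared between high and low muscling, where 2.28% of all detected genes rose and 5.5% fell. These calls rest on 3 sires per group. With sire means as samples 0 of all detected genes passed, and only 29 without sire 16 and 23 without sire 5. The single genes named here and in the next paragraph were not followed with families left out. In the NEDD8 pathway, 1 of 7 genes rose and 1 fell: CAND2 by 0.38 ± 0.12 (limma adjusted p = 0.0454), and CAND1, which exchanges the substrate receptors of cullins, by −0.56 ± 0.16 (adjusted p = 0.0184). Of 4 cullins, 0 passed. Of 14 detected partners of cullins, 2 rose, namely KEAP1 (0.44 ± 0.13), the receptor that targets NRF2, and FBXW7 (0.44 ± 0.14), an F-box receptor. Of 11 detected partners of the signalosome 0 passed, including COPS9, a small further subunit, at 0.06 ± 0.13 (adjusted p = 0.833).

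The lid of the proteasome and the translation factor eIF3 are complexes built on the same plan as the signalosome. PSMD14, the deubiquitinating relative of COPS5 in the lid, had a log2 difference of −0.26 ± 0.09 (limma adjusted p = 0.0788), and EIF3H, its relative in eIF3, one of −0.21 ± 0.09 (adjusted p = 0.145). Of 4 lid genes 1 fell (PSMD6, −0.50 ± 0.16), and of 11 eIF3 genes 1 rose (EIF3A, 0.42 ± 0.11) and 1 fell (EIF3E, −0.38 ± 0.12). Of 13 core proteasome genes 7 fell in high muscling, among them PSMB4 (−0.32 ± 0.07, adjusted p = 0.00376), PSMA3 and PSMB3. Over all detected genes 5.5% fell and 2.28% rose, and with sire means as samples 0 genes passed. The median difference was −0.25 for these 13 genes, against −0.04 over all detected genes. The relatives of COPS6, PSMD7 and EIF3F, were not analysed here.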

How the data were processed

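The authors deposited MAS5 intensity signals on a linear scale (version not given in the sources used here), which their software had scaled on each array. The mean over probe sets, with 2% trimmed at each end, is 200 on each array. Detection flags were not used. Symbols came from the platform annotation: 13292 of 24016 probe sets had 1 symbol, 86 several and 10638 none. The probe set with the highest mean stood for a gene. Log2 signals of 6360 detected genes were fitted with limma 3.58.1 (R 4.3.3), with Benjamini-Hochberg adjustment over all of them. Sire was a random block for high against low muscling, with a single correlation of 0.135 for all genes, and a fixed effect for associations. COPS3 and COPS5 varied more between sires than the median gene, so their SE may be too small. The progeny of 1 sire share a father, and no source says how arrays were batched. Correlations were tested with 100000 permutations, two-sided except where animals were permuted within sires without removing sire means. Precision is set by how many arrays there were, since signals have no counts behind them. For high against low muscling it is also limited by the 3 sires per group. On simulated data, the test of high against low muscling recovered 52% of shifts of 0.5 log2 units and 92% of shifts of 1, with 17 false calls. Every simulated gene had the sire correlation of 0.135, so genes that vary more between sires were not covered. The test of association with COPS5 recovered 29% of slopes of 0.5 SD and 97% of slopes of 1 SD, with 8 false calls. Named genes are all subunits, the 5 most and 5 least like COPS5, and up to 4 per list by p in the association with COPS5 and up to 3 in high against low muscling; genes named for COPS6 and COPS8, and COPS9, were chosen after their values were seen. The subunits and lists were chosen with earlier results of these data known, and current symbols were added to 18 module genes after the files were seen. Sequences and genome positions were not used here.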

Additional observations from a re-analysis of the deposited data

Results flagged for a closer look

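Of 42 combinations of a subunit and a sire family, 1 held an animal far from its family. COPS4 was 807.6 in a progeny of sire 2 (number 62), against 1065 for the nearest and 1220 for the highest of the 7 progeny of that sire. The gap to the nearest was 0.624 of the range of the family, above the critical value of 0.568. By chance about 5% of such families would be marked.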

How the results depend on the processing

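Of 330 values of single subunits under alternatives, 290 kept their direction and side of the threshold, 10 lost a call, 7 gained one and 23 changed sign; of those 23, only the correlation of COPS3 with COPS5 had passed before. The number of subunits passing between high and low muscling was 0 in every setting except 2 with no block, and 0 to 2 over left-out families. Over all genes this number was 495, against 1586 with no block, 0 with sire means as samples, and 23 to 1221 over left-out families. The log2 difference of COPS6 ran from −0.021 (without sire 11) to 0.21 over left-out families, and that of COPS7B from −0.0018 (without sire 16) to 0.11. The number of subunits associated with COPS5 was 1 with no fixed effect. Genes associated with COPS5 numbered 1, against 0 with quantile normalization, with the mean over probe sets and with spiked controls as a covariate, 29 with median centring, 421 with muscling group as fixed effect, 952 with no fixed effect, 4 with the GAPDH ratio (added after seeing the data), and 0 to 1 over left-out families. Over left-out families the slope on COPS5 ran from −0.27 (without sire 5) to 1.03 for COPS3, from −1.09 to 0.036 (without sire 5) for COPS8 and from −0.053 (without sire 5) to 1.09 for GPS1, and with no fixed effect it was −0.026 for COPS6 and −0.027 for GPS1. Genes associated with COPS6 numbered 398 to 530 over left-out families, 402 without 2 animals and 390 with the GAPDH ratio, and median centring turned 314 positive and 318 negative calls into 376 and 190. Correlations with COPS5 with a permutation p under 0.05 numbered 1 with quantile normalization, median centring or Spearman correlation, 0 in high muscling alone, and 1 to 2 over left-out families; with sire means removed they were COPS4 and COPS6, not COPS3 and COPS7B. In high muscling alone r was −0.039 for COPS3, 0.27 for COPS6 and 0.19 for COPS8. For COPS6 it was 0.11 with median centring, 0.35 with sire means removed, and −0.080 to 0.17 over left-out families (above 0 without sires 11 and 16). For COPS8 it was −0.40 to 0.15 over left-out families (above 0 without sire 5). For GPS1 it was 0.10 with quantile normalization, 0.071 with median centring, 0.21 with sire means removed, 0.22 in low muscling alone, 0.019 without the 2 farthest animals, and −0.10 to 0.079 over left-out families (above 0 without sires 2, 7 and 16). The cause was not tested. No paired analysis was possible because no animal and no sire belonged to both muscling groups.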
